A study of Mus musculus with 15 samples.

Results

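The cytoplasmic ribosomal proteins, the protein components of the ribosomes that translate nuclear mRNAs, were followed in tibialis anterior, the muscle at the front of the shin. Members were the gene symbols that follow the Rpl and Rps naming pattern, together with the stalk proteins Rplp0, Rplp1 and Rplp2 and the small-subunit protein Rpsa. The rule used names and no measured value. It found 88 of the 47643 symbols in the table, 36 of the small subunit and 52 of the large subunit. Of these, 81 (32 small, 49 large) reached 1 TPM in 3 or more libraries of 15 and entered the tests. TPM is a transcript level corrected for transcript length that sums to 1000000 in each library. The other 7 were at 0 or trace levels. In the GENCODE annotation Rpl39l and Rpl10l are protein-coding, while Rps4l, Rps12l1, Rps3a2, Rps3a3 and Rpl6l are pseudogenes. Rps4l, Rps12l1, Rps3a2 and Rps3a3 were listed at 0 in every library, and the highest single values of Rpl39l, Rpl6l and Rpl10l were 0.858, 0.194 and 0.0397 TPM.

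The samples came from female C57BL/6J mice, with an age of 7 weeks in the labels. They carried a melanoma graft that brings on cachexia, a loss of muscle and fat, or had a mock injection, and tissue is dated to day 49 after it by the series' design. A protocol field also names 3 weeks, for another tumour model. Lisinopril, a blood-pressure drug that blocks angiotensin-converting enzyme, or a mock treatment was given to either kind of mouse. The groups held 4 control libraries (no tumour, mock treatment), 3 lisinopril libraries (no tumour, drug), 4 melanoma libraries (tumour, mock treatment) and 4 melanoma plus lisinopril libraries (tumour and drug). The sources used here do not give the melanoma line, the tumour size or the drug dose.

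A ribosome has a small subunit, which reads the mRNA, and a large subunit, which joins the amino acids. Most of their proteins are needed in equal numbers, and their mRNAs are among the most abundant in many cells. In mammals most of these mRNAs begin with a 5′ terminal oligopyrimidine (TOP) tract, a C followed by a run of C and T, through which the growth-regulating kinase complex mTORC1 controls their translation. Ribosome number sets how much protein a muscle fibre can make, and muscle fibres also express Rpl3l, a muscle-restricted paralog of Rpl3.

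The RefSeq promoter table (build GRCm38.p6) held windows for 61 of the 81 tested members. A TOP tract was searched for on the gene's own strand, as a C followed by at least 4 C or T letters. It began exactly at an annotated start site in 13 of 61 members (21.3%) and in 3.09% of the 9002 tested genes with windows. Members are among the 9002, and a gene counted where any of its start sites matched. Allowing a start within 5 bases, the numbers were 29 of 61 (47.5%) and 24.2%. The windows below show the tract in 5 members and its lack in 2, each with 12 bases before the annotated start site and the tract in capitals.
Rps27, GRCm38.p6 chr3:90213631-90213660, minus strand: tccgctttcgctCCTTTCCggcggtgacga
Rps18, GRCm38.p6 chr17:33955648-33955677, minus strand: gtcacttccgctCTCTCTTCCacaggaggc
Rps6, GRCm38.p6 chr4:86857350-86857379, minus strand: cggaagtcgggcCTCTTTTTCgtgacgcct
Rpl15, GRCm38.p6 chr14:18270969-18270998, minus strand: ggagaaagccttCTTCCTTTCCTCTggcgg
Rpl14, GRCm38.p6 chr9:120571505-120571534, plus strand: cgggccctctctCTTCTCgctgagcgccgc
Rpl10, GRCm38.p6 chrX:74270804-74270833, plus strand: gttacagtggaagataggccgcctatataa
Rpl3l, GRCm38.p6 chr17:24727814-24727843, plus strand: tgttctagctctgtcatttgacctctggtg

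Over the 300-base windows and both strands, CCGGAAG, the core bound by ETS factors such as GABP, occurred in 25 of 61 members (41.0%) and in 19.96% of the 9002 genes. GGGCGG, the GC box, occurred in 38 (62.3%) against 68.7% and TATAAA in 7 (11.5%) against 9.18%. None of these letters holds another of the motifs. They are descriptions of sequence in windows set by annotation, and a member without a match may start elsewhere.

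The depth of the libraries is unknown, because TPM keep no totals. Between 10530 and 12363 symbols reached 1 TPM per library. The muscle fibre markers, such as Acta1 and Ckm, summed to between 70158 and 144194 TPM, lowest in melanoma 2. Of the melanoma markers, Tyr was listed at 0 in every library and the 5 markers together reached at most 0.392 TPM. Control 2 stood apart, with 23878 TPM of haemoglobin mRNA where the other libraries had 159 to 4197. Melanoma 2 and melanoma plus lisinopril 4 had the lowest haemoglobin, 159 and 164 TPM, and the latter the lowest share of mitochondrially encoded RNA, 28.5%. All 3 of these libraries were high in ribosomal protein mRNA. Results are given with and without control 2 and melanoma 2 together, while melanoma plus lisinopril 4 was left out only singly. This choice rests in part on the members' own level, so counts without both libraries are no independent check.

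In tumour-bearing mice the members together took a larger part of the muscle's mRNA than in tumour-free mice, but the groups overlapped. In the controls the 88 symbols summed to 22317, 31577, 16374 and 21351 TPM. With lisinopril alone the sums were 17566, 20298 and 17917 TPM. With melanoma they were 30055, 44605, 26313 and 25102 TPM, and with melanoma and lisinopril 27902, 23097, 21781 and 41753 TPM. Control 2 lay above 6 of the 8 tumour-bearing libraries, while the other 6 tumour-free libraries lay at or below 22317 TPM and the tumour-bearing libraries, with the exception of 1 at 21781 TPM, above it. The mean was 21057 ± 5114 TPM (SD, n = 7) without tumour and 30076 ± 8524 (SD, n = 8) with tumour, a ratio of 1.43. In such bulk samples a change in the number of cells of a type and a change in RNA per cell cannot be told apart.

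Part of the difference lay in the scale. Mitochondrially encoded RNA made up 44.5% ± 4.20 (SD, n = 7) of TPM without tumour and 39.1% ± 5.95 (SD, n = 8) with tumour, and all other genes share the rest. Of the TPM outside the mitochondrial genome, the members took 3.78% ± 0.775 (SD, n = 7) and 4.90% ± 1.08 (SD, n = 8). Median-ratio rescaling, which sets the typical gene of each library to the same level, gave 22198 ± 2169 TPM (SD, n = 7) and 27948 ± 5470 (SD, n = 8). On that scale the 7 tumour-free sums ran from 20417 to 26628 and the 8 tumour-bearing sums from 21980 to 36896, and the ratio of means was 1.26.

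**Figure D1:**
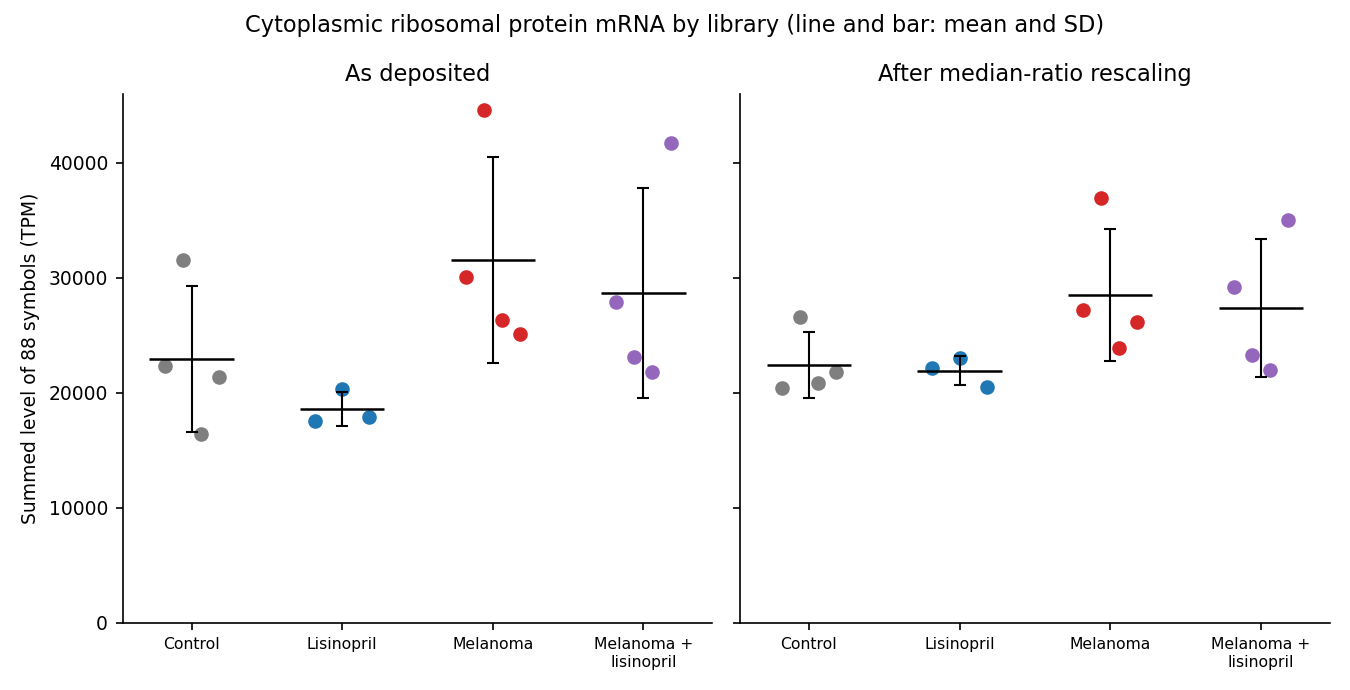
Summed level of the 88 cytoplasmic ribosomal protein symbols (TPM, axis from 0) in each of the 15 libraries by group, as deposited (left) and after median-ratio rescaling (right). Points are libraries, lines and bars the mean and SD; melanoma 2 and melanoma plus lisinopril 4 are the highest points on both scales, at 44605 and 41753 TPM as deposited, and control 2 is the highest tumour-free point.

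The small and the large subunit moved together. The summed TPM of the small subunit was 0.647 ± 0.0174 (SD, n = 7) of that of the large subunit without tumour and 0.663 ± 0.0291 (SD, n = 8) with tumour, a difference smaller than either spread. The 3 highest ratios were in melanoma 2 (0.702), melanoma plus lisinopril 4 (0.695) and melanoma 1 (0.679). The mean log2(TPM + 1) of the small-subunit members exceeded that of the large-subunit members by 0.16 ± 0.10 (SD, n = 7) without tumour and 0.20 ± 0.11 (SD, n = 8) with tumour, and rescaling left these differences at 0.16 and 0.20. In control 1 and melanoma plus lisinopril 1 this difference was negative (-0.064 and -0.036) because Rps26 was near 0 there, as described with its copy further on. With copies of similar sequence added to their members, it was 0.27 ± 0.02 (SD, n = 7) and 0.28 ± 0.05 (SD, n = 8), between 0.23 and 0.39 in every library.

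The average tumour effect is the mean of the tumour difference without lisinopril and with it, on the log2(TPM + 1) scale, and its adjusted p comes from limma over all 11923 genes tested. On this measure 28 of 81 members were higher and 0 lower with tumour, where 14.5% of all genes tested were higher and 3.45% lower. At an unadjusted p under 0.05 limma gave 67 members, all of them higher, where 38% of all genes passed in either direction. The estimate was positive for 81 of 81 members. Their median log2 fold change was 0.52, that of all genes 0.17, so that the members' median lay 0.35 above that of all genes. By subunit, 9 of 32 small-subunit members (median 0.54) and 19 of 49 large-subunit members (median 0.50) were higher.

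How many members passed depended on the scale and on single libraries. After median-ratio rescaling 14 of 81 were higher, all among the 28, against 9.45% of all genes; 6 were of the small and 8 of the large subunit. The members' median was then 0.32 and that of all genes 0.00. With TPM recomputed without the mitochondrial genome 16 were higher, against 10% of all genes. Without control 2 and melanoma 2 together, 64 were higher, against 26.1% of all genes, and with rescaling as well 26, against 14.6%. The fit with both changes was not among the planned ones. Leaving out single libraries gave 70 members without control 2 (28.2% of all genes), 49 without melanoma plus lisinopril 3 (15.2%) and 47 without melanoma 4 (19.5%). It gave 25 without melanoma 3 (12.1% of all genes), 26 without melanoma plus lisinopril 2 (13%), 15 without melanoma 1 (11.1%), 11 without melanoma 2 (11.2%), 9 without control 1 (9.51%) and 8 without control 4 (7.82%). Without melanoma plus lisinopril 1 or 4 it gave 9 (9.58% and 7.96% of all genes). In 4 of the 15 fits the members were called less often than all genes. These were the fits without lisinopril 1, with 1 member or 1.23% against 4.88% of all genes, and without lisinopril 2, with 5 or 6.17% against 6.28%. The others were those without control 3 and without lisinopril 3, each with 3 members or 3.7%, against 7.13% and 8.54% of all genes. The members' median stayed between 0.41 and 0.59 in the 15 fits and lay 0.28 to 0.39 above that of all genes. With no filter on low values 3 of 84 members passed, 3.57% against 4.62% of all genes, so the members' excess in calls was absent there too.

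The neutrophil markers moved in the same comparison, with 7 of 7 higher. Their summed level was 22.2 to 98.7 TPM in the controls, 10.6 to 60.1 with lisinopril, 107 to 359 with melanoma and 34.3 to 188 with melanoma and lisinopril. Melanoma 2 had the highest sum of them, 359 TPM, and melanoma plus lisinopril 4, the library with the second largest ribosomal protein sum, had 34.3 TPM, the lowest of its group. The B and T cell markers moved the other way, and the groups with and without tumour did not overlap in their sum. It was 40.1 to 194 TPM in the controls, 34.1 to 229 with lisinopril, 3.11 to 12.04 with melanoma and 2.91 to 21.5 with melanoma and lisinopril, and 1 of the 3 of its 8 markers that entered the tests was lower. Of the macrophage markers 2 of 7 were higher, of the fibroblast markers 2 of 5 and of the satellite cell markers 1 of 4, while 1 of 5 endothelial markers was lower. The 3 Schwann cell markers went both ways, with 1 higher and 1 lower. None of the 10 muscle fibre, 5 red blood cell and 2 tested adipocyte markers passed. Of all genes tested 14.5% were higher and 3.45% lower, so counts of 1 or 2 in such short lists say little. The part of these cell types in the result was not tested.

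**Figure D2:**
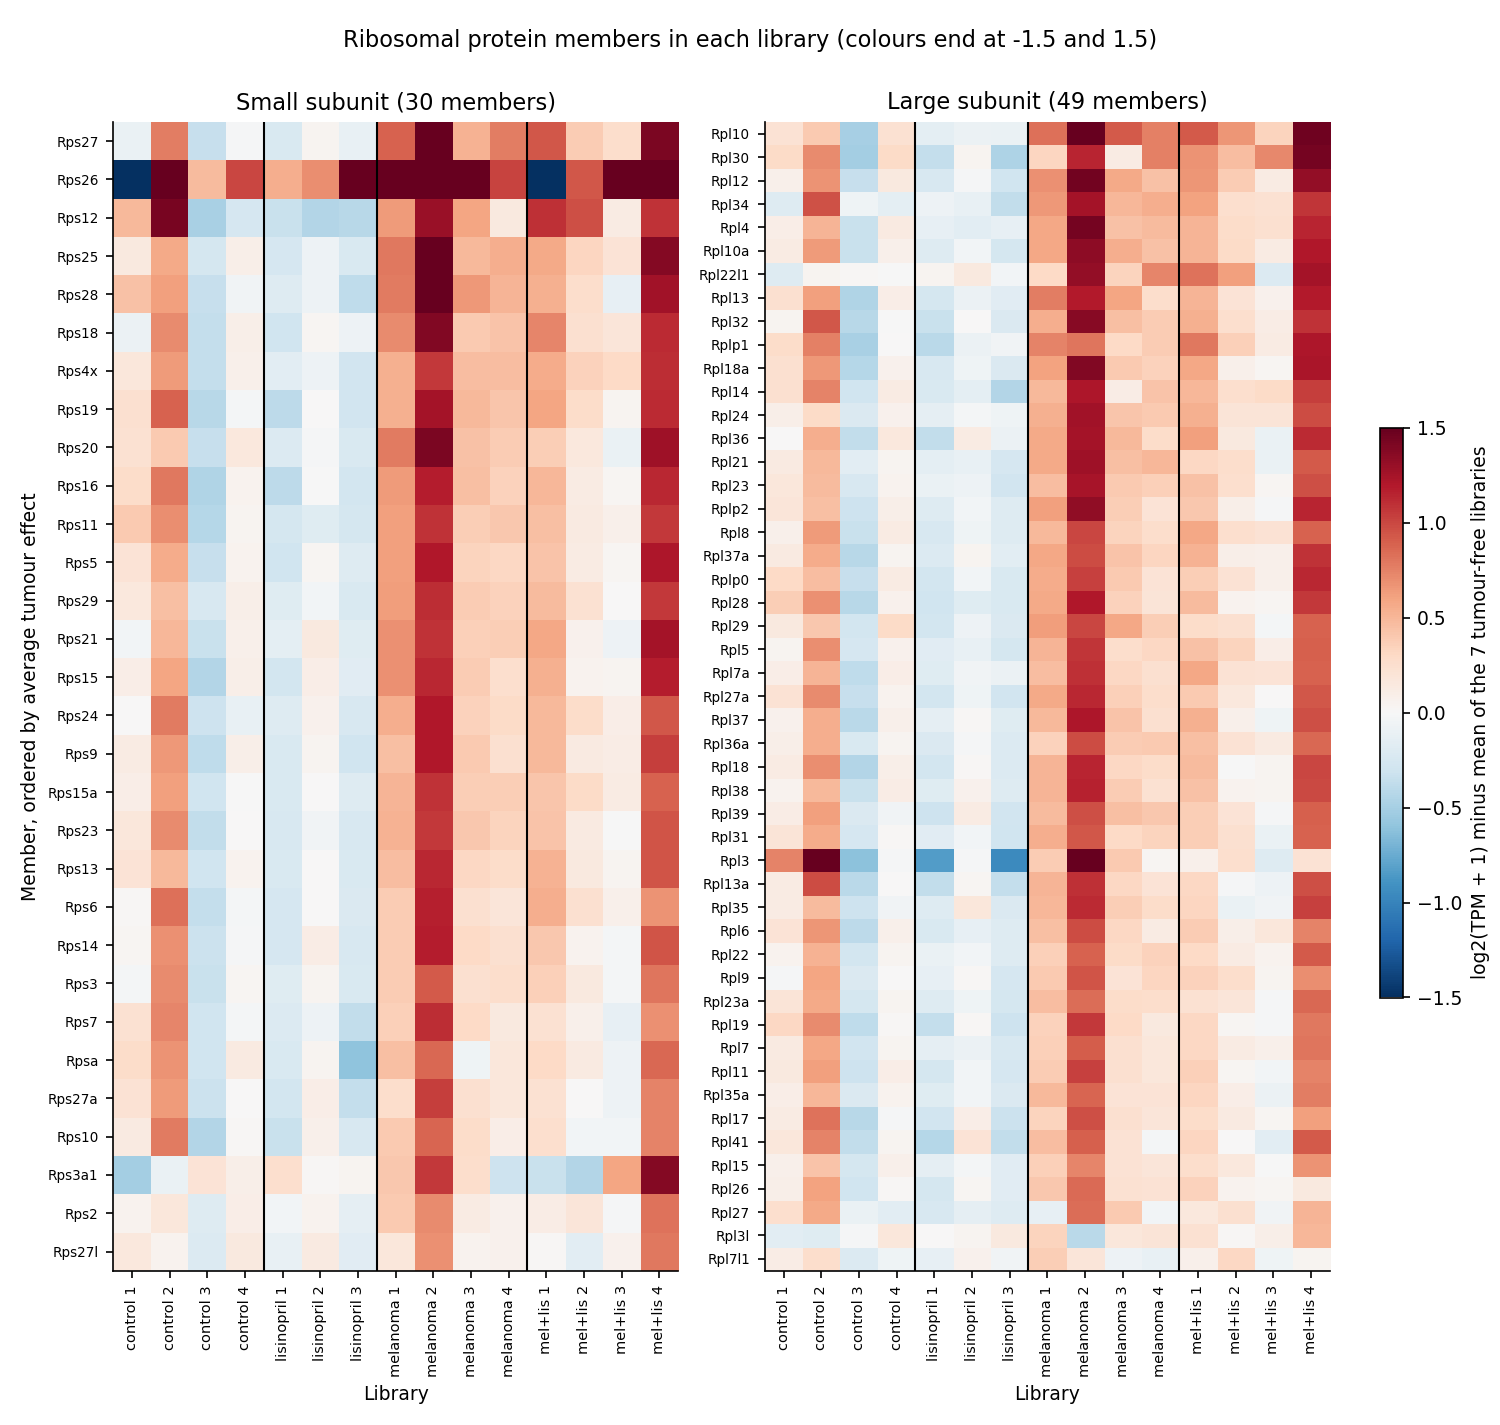
Level of each tested member in each library, as log2(TPM + 1) minus the mean of the 7 tumour-free libraries (colours saturate at the ends of the scale), for small-subunit (left) and large-subunit members (right), 79 of the 81 drawn, ordered by average tumour effect; black lines part the groups. Each row is centred, so differences in level between members are not shown. Melanoma 2 and melanoma plus lisinopril 4 are high throughout, control 2 is high among the tumour-free libraries, and Rps26, Rpl3, Rps3a1 and Rpl3l depart from the column pattern.

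The libraries moved as blocks. Melanoma 2 had the highest value of 63 of the 81 members and melanoma plus lisinopril 4 of 16. Relative to the tumour-free mean, the median member was 1.11 higher in melanoma 2 and 0.97 higher in melanoma plus lisinopril 4 on the log2 scale. It was 0.04 higher in melanoma plus lisinopril 3, less than in control 2 (0.62), control 1 (0.13) and control 4 (0.05). After rescaling the median member was at 0.73 in melanoma 2, 0.61 in melanoma plus lisinopril 4 and 0.27 in control 2. On that scale melanoma plus lisinopril 3 stood at -0.051, below control 4 (-0.020) but above control 1 (-0.10). Melanoma plus lisinopril 3 was thus the tumour-bearing library nearest the tumour-free ones, with 51 of 81 members above their tumour-free mean and, after rescaling, 26. Across the 15 libraries 75 of the 81 members had a correlation above 0.8 with the mean of all tested members, a description in which the libraries share their scale.

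Among small-subunit members the largest changes past the threshold were those of Rps27, Rps25 and Rps28. Rps27, a zinc-binding protein of the small subunit, measured 171, 313, 144 and 182 TPM in the controls, 156, 189 and 170.0 with lisinopril, 339, 733, 264 and 312 with melanoma, and 350.2, 239.6, 220.3 and 489 with melanoma and lisinopril. Its value in control 2 was passed by 4 of the 8 tumour-bearing libraries, and the other 6 tumour-free values lay below all 8. The log2 fold change was 0.90 ± 0.24 (SE; limma adjusted p = 0.0231), and it passed the threshold in 14 of the 15 fits that leave out 1 library.

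Rps25, which some viral mRNAs need to start translation, measured 599, 802, 449.6 and 571 TPM in the controls and 453, 512 and 459 with lisinopril. With melanoma it measured 936, 1661, 757 and 783 TPM, and with melanoma and lisinopril 802, 675, 619.5 and 1397. Here too control 2 was the tumour-free library inside the tumour-bearing range, and the log2 fold change was 0.76 ± 0.20 (SE; limma adjusted p = 0.0246). Rps28 changed by 0.71 ± 0.22 (adjusted p = 0.0383), with 80.7 to 162 TPM without tumour and 97.4 to 312 with tumour. Rps4x, the X-linked Rps4 gene, ran from 245 to 490.3 TPM without tumour and from 385 to 676 with tumour, and changed by 0.62 ± 0.16 (adjusted p = 0.0222). Rps29, another zinc-binding protein, changed by 0.55 ± 0.17 (adjusted p = 0.0367), but not past the threshold after rescaling (0.35, adjusted p = 0.0634), and it passed in 5 of the 15 fits that leave out 1 library.

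Other well-known small-subunit members did not pass. Rps6, the protein phosphorylated by the S6 kinases below mTORC1, measured 258, 455, 199 and 251 TPM in the controls, 215, 256 and 219.9 with lisinopril, 333, 574, 303 and 289.7 with melanoma, and 375, 301, 269 and 407 with melanoma and lisinopril. Without control 2 the tumour-free values end at 258 TPM, below all 8 tumour-bearing values; with it the log2 fold change was 0.46 ± 0.19 (adjusted p = 0.0900). Rpsa, also known as a laminin receptor, was at 0.36 ± 0.19 (adjusted p = 0.164). Rps3a1 was at 0.32 ± 0.26 (adjusted p = 0.384), with 298 to 503 TPM without tumour and values from 313 to 1105 TPM in the melanoma plus lisinopril group alone.

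In the large subunit the largest change was that of Rpl10, a protein that joins the subunit late in its assembly. It measured 42.8, 48.4, 25.6 and 43.2 TPM in the controls, 33.1, 34.6 and 34.3 with lisinopril, 66.2, 184, 70.6 and 62.8 with melanoma, and 70.2, 58.7, 46.6 and 103 with melanoma and lisinopril. A single tumour-bearing value, 46.6 TPM in melanoma plus lisinopril 3, lay below the highest tumour-free value. The log2 fold change was 1.04 ± 0.23 (SE; limma adjusted p = 0.0125), a 2.05-fold difference of TPM + 1, and Rpl10 passed in all 15 fits that leave out 1 library. After rescaling it was 0.84 ± 0.19 (adjusted p = 0.0107) and every tumour-bearing library lay above every tumour-free one. That separation held for 0 of 81 members as deposited (1.49% of all genes) and for 2 of 81 after rescaling, Rpl10 and Rpl24 (2.01% of all genes).

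Rpl24, which forms a bridge between the subunits, measured 413, 477, 335 and 408 TPM in the controls and 354, 380.0 and 373 with lisinopril. With melanoma it measured 562, 933, 519 and 513 TPM, and with melanoma and lisinopril 564, 447, 444 and 769, so that control 2 alone overlapped the tumour-bearing range. Its log2 fold change was 0.57 ± 0.16 (adjusted p = 0.0254). Rpl30 changed by 0.74 ± 0.21 (adjusted p = 0.0283) and Rpl12, at the base of the stalk, by 0.73 ± 0.20 (adjusted p = 0.0281). Rpl4, which lines the tunnel through which the new chain leaves, changed by 0.65 ± 0.18 (adjusted p = 0.0279) and had the second highest mean level of all members, 931 TPM.

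The stalk of the large subunit draws in the translation factors. Rplp1, the most abundant member with a mean of 1428 TPM, ran from 775 to 1838 TPM without tumour and from 1183 to 2529 with tumour and changed by 0.61 ± 0.19 (adjusted p = 0.0424). That call ended after rescaling (0.41, adjusted p = 0.0611) and held in 5 of the 15 fits that leave out 1 library. Its partners Rplp2 and Rplp0 were at 0.53 ± 0.20 (adjusted p = 0.0668) and 0.52 ± 0.18 (adjusted p = 0.0528), with all 3 positive. Rpl39, in the exit tunnel, changed by 0.49 ± 0.16 (adjusted p = 0.0498), was at 0.29 after rescaling (adjusted p = 0.0928) and passed in 3 of the 15 fits. Rpl38, whose loss alters the body axis of mice, was at 0.49 ± 0.18 (adjusted p = 0.0648), Rpl13a at 0.44 ± 0.22 (adjusted p = 0.146), Rpl41, the shortest member protein, at 0.36 ± 0.20 (adjusted p = 0.209) and Rpl7 at 0.39 ± 0.16 (adjusted p = 0.0826).

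**Figure D3:**
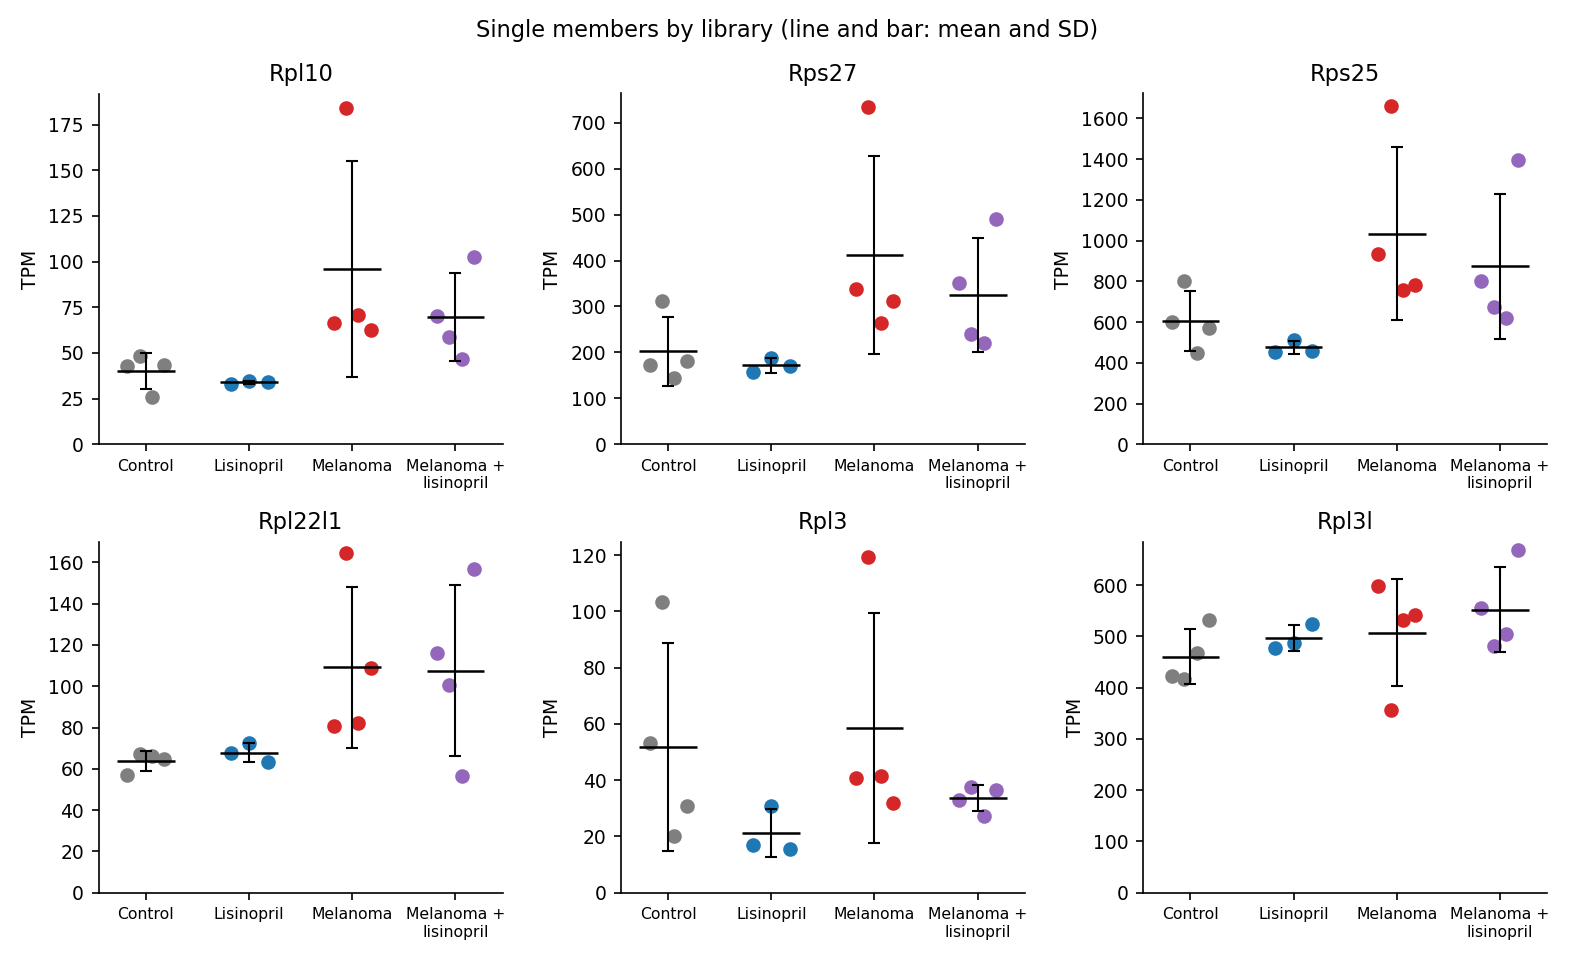
TPM (axes from 0) of 6 members in each of the 15 libraries by group, with points for libraries and lines and bars for the mean and SD. Rpl10, Rps27, Rps25 and Rpl22l1 lie higher in most tumour-bearing libraries and highest in melanoma 2, Rpl3 is highest in melanoma 2 and control 2, and Rpl3l is lowest in melanoma 2 at 357 TPM.

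Paralogs of the core proteins behaved less uniformly. Rpl3, which helps to form the catalytic centre, measured 53.3, 103, 20.2 and 30.9 TPM in the controls, 17.1, 31.0 and 15.6 with lisinopril, 40.9, 119, 41.4 and 31.9 with melanoma, and 33.0, 37.6, 27.3 and 36.7 with melanoma and lisinopril. Rpl3l, its muscle paralog, was the more abundant of the pair in every library, at 423, 416, 468 and 532 TPM in the controls, 477, 488 and 525 with lisinopril, 598, 357, 533 and 541 with melanoma, and 556, 481, 504 and 668 with melanoma and lisinopril. Groups overlapped for both genes, and neither passed: Rpl3 was at 0.46 ± 0.33 (adjusted p = 0.318) and Rpl3l at 0.13 ± 0.12 (adjusted p = 0.433), the latter turning to -0.070 after rescaling.

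The ratio of Rpl3l to Rpl3 was lowest in melanoma 2 (2.99) and control 2 (4.03), then in control 1 (7.94), and highest in lisinopril 3 (33.6). Its mean was 18.5 ± 10.6 (SD, n = 7) without tumour and 14.2 ± 5.05 (SD, n = 8) with tumour. The sum of both was steadier, at 514 ± 30.7 TPM (SD, n = 7) and 576 ± 71.7 (SD, n = 8). Rpl3l had the weakest correlation with the mean of the members, -0.018, where the median member had 0.973.

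Rpl22l1, which can stand in for Rpl22, measured 57.0 to 67.1 TPM in the controls and 63.4 to 72.5 with lisinopril. It measured 80.8, 164, 82.4 and 109 TPM with melanoma, all above the 7 tumour-free values, and 116, 101, 56.4 and 157 with melanoma and lisinopril, where melanoma plus lisinopril 3 was the lowest of all 15 libraries. The log2 fold change was 0.64 ± 0.20 (adjusted p = 0.0391) and 0.44 ± 0.19 after rescaling (adjusted p = 0.114). Control 2 was not raised for this gene. Rpl22 itself was at 0.42 ± 0.15 (adjusted p = 0.0639). Rpl7l1, a nucleolar relative of Rpl7 at 19.8 to 29.9 TPM, was at 0.10 ± 0.11 (adjusted p = 0.535), the smallest estimate of all members, and turned to -0.10 after rescaling. Rps27l, a target of p53, was at 0.22 ± 0.15 (adjusted p = 0.287).

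Compared within each drug arm, no member passed the threshold. With melanoma against control limma called 0 of 81 members (0.461% of all genes were higher and 0.185% lower) and 21 at an unadjusted p under 0.05 (18.5% of all genes). The estimate was positive for 81 of 81, with a median of 0.44 against 0.10 for all genes. Rpl10 had the largest change apart from Rps26, 1.12 ± 0.32 (SE; adjusted p = 0.110; 0.77 ± 0.27 with its copy added), followed by Rps27 at 0.96 ± 0.32 (adjusted p = 0.154). All 4 melanoma libraries lay above all 4 controls for 4 members, among them Rpl10, Rpl22l1 and Rpl24 (5.33% of all genes as deposited), and for 17 members after rescaling (6.71%).

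With melanoma and lisinopril against lisinopril alone limma again called 0 of 81 (1.34% of all genes were higher and 0.143% lower) and 40 at an unadjusted p under 0.05 (23.3% of all genes). The estimate was positive for 80 of 81, with a median of 0.56 against 0.23 for all genes. Rpl30 was at 1.09 ± 0.30 (SE; adjusted p = 0.0803), the smallest adjusted p among the members in this comparison. Rps12 was at 1.21 ± 0.39 (adjusted p = 0.113), but its copy Rps12-ps3 holds most of the family's TPM. With the copy added the sum was 569, 855 and 520.0 TPM with lisinopril and 1004, 812, 671 and 1451 with melanoma and lisinopril, and the log2 fold change was 0.58 ± 0.31 (adjusted p = 0.263). All 4 libraries with tumour lay above all 3 without for 49 members (29% of all genes) and for 13 after rescaling (12.8%). Without control 2 and melanoma 2, which belong to neither group compared but enter the shared estimate of the spread, 24 members passed (14.4% of all genes), or 5 with rescaling as well (7.34%).

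**Figure D4:**
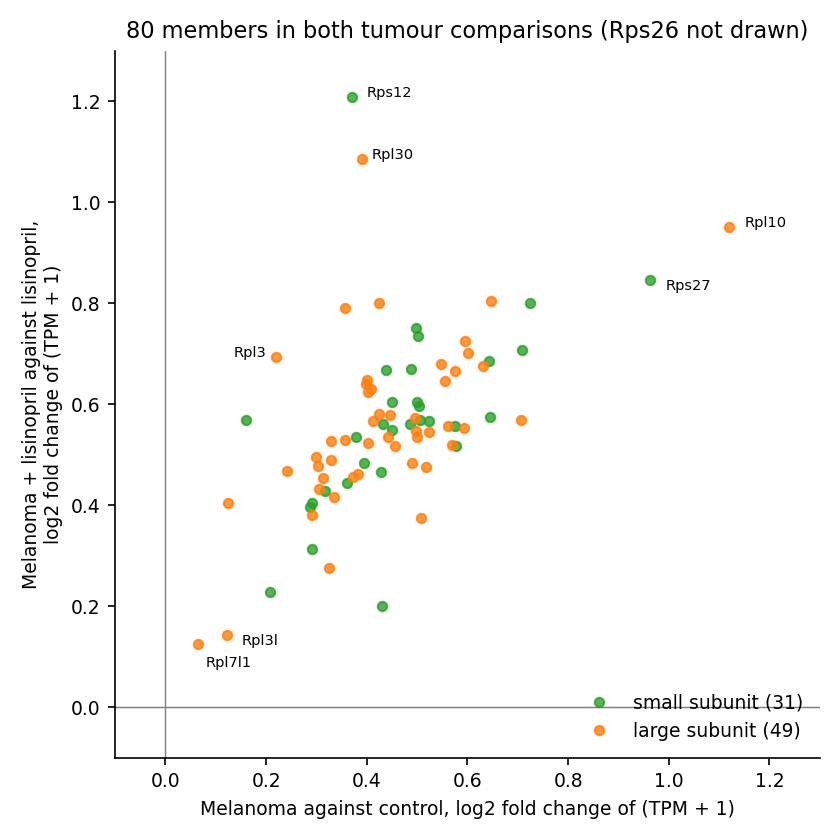
Log2 fold change of (TPM + 1) in melanoma against control (horizontal) and in melanoma plus lisinopril against lisinopril (vertical), which share no library, for 80 members coloured by subunit. All 80 points lie above 0 on both axes, Rpl10 and Rps27 are high on both, and Rpl3l and Rpl7l1 lie nearest the origin; Rps26, at 2.76 and -1.12, is not drawn.

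Lisinopril moved no member past the threshold. Without tumour limma called 0 of 81 members (0% of all genes in either direction) and 1 at an unadjusted p under 0.05 (3.87% of all genes), namely Rpl3 at -1.06 ± 0.48 (adjusted p = 0.714). The median was -0.27 and that of all genes -0.18, and after rescaling they were -0.037 and 0.014. With tumour limma called 0 members (0% of all genes), with 0 at an unadjusted p under 0.05 (1.59% of all genes). The median was -0.17 against -0.06, and after rescaling -0.087 against 0.0062. The interaction, which asks whether the tumour difference changed with the drug, gave 0 members (0% of all genes) and 0 at an unadjusted p under 0.05 (1.27%). Its median was 0.09 against 0.13 for all genes, and -0.062 after rescaling.

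Ribosomal protein genes have many processed copies, inserted from spliced mRNA, and reads from nearly identical sequences can be assigned to either. In GENCODE transcripts of build mm10, 52 genes matched the coding sequence of a member over at least 80% of its length with at least 90% identity, for 33 members, and 19 of them had a mean of at least 1 TPM. All these genes are called copies here on sequence alone, and some are annotated as protein-coding. For 5 members most of the family's TPM stood under a copy's name. Rpl27-ps3 held 96.1% of the Rpl27 family, Rpl10-ps3 94.3% of Rpl10, 2 copies 91.3% of Rps18, Rps12-ps3 79.5% of Rps12 and 7 copies 74.6% of Rps2. Rpl10-ps3 (mm10 chr9:50344201-50344968) has the same coding sequence as Rpl10, base for base, so the low level under the name Rpl10 and its split are uncertain.

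With every copy added to its member, the families summed to 18961 to 35869 TPM without tumour and 24816 to 51234 with tumour. Then 26 of 81 were higher in the average tumour effect (14.5% of all genes), 25 of them among the 28. Rpl21 and Rps18 were among the members that no longer passed, and Rplp0 passed where it had not. BC004004, the gene added to Rpl21, is annotated as protein-coding over mm10 chr17:29268788-29314065 and was at 22.8 to 43.3 TPM. Wdr89, added to Rplp2, is also annotated as protein-coding. Whether their TPM came from the matching stretch was not tested. The Rpl10 family changed by 0.82 ± 0.20 (adjusted p = 0.0165) and the Rps27 family, with its copy Rps27rt, by 0.87 ± 0.22 (adjusted p = 0.0218). This addition was made after the data were seen.

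Rps26 was the extreme case. Its copy Rps26-ps1 (mm10 chr8:107439131-107439579, minus strand, a transcribed processed pseudogene) differs from Rps26 (chr10:128624534-128626747, minus strand) at 2 of the 345 bases of the coding sequence, C30T and G270A. The first base of each token is that of Rps26, the second that of the copy, and positions count from the A of the start codon. Bases 1 to 300 of both are shown because these 2 positions, in capitals, are what tells the transcripts apart within the coding sequence.
Rps26: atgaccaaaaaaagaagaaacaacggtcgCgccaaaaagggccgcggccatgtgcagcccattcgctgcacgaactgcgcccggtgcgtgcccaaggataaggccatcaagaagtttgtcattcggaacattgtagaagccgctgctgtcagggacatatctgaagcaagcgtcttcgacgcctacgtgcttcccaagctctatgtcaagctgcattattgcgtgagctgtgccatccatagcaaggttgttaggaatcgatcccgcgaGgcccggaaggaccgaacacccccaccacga
Rps26-ps1: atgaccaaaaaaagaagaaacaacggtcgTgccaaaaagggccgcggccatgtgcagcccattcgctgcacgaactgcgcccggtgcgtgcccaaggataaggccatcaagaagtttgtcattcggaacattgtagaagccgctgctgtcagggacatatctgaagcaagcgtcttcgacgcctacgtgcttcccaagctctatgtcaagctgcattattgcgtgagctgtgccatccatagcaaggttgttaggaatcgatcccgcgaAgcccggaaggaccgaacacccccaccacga

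Rps26 was listed at 0.275, 645, 174 and 249.7 TPM in the controls, 182, 202 and 365 with lisinopril, 660.0, 835, 537 and 252 with melanoma, and 0.658, 238, 425 and 853 with melanoma and lisinopril. Rps26-ps1 was at 684, 0.718, 201 and 268 TPM in the controls, 222, 226 and 0.196 with lisinopril, 0.326, 0.116, 0.435 and 308 with melanoma, and 650.3, 280.0, 0.307 and 0.234 with melanoma and lisinopril. Each library thus fell into 1 of 3 states, and none lay between them. The copy held at most 0.111% of the pair in 7 libraries, 51.8% to 55.0% in 6 and at least 99.9% in 2, which were control 1 and melanoma plus lisinopril 1. All 4 groups held libraries of more than 1 state.

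The pair together ran from 365 to 853 TPM, and the library with 0.275 TPM of Rps26 had 684 TPM of the pair. Under the single name the log2 fold change was 0.82 ± 1.36 (adjusted p = 0.682), which became -0.17 without control 1 and 1.82 without melanoma plus lisinopril 1. For the pair it was 0.40 ± 0.17 (adjusted p = 0.0953) where the median of the small-subunit members with copies was 0.53.

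Such steps were also present in the families of Rplp0 and Rpl14. Gm8730, a copy of Rplp0 (mm10 chr8:102864845-102865798), held at most 0.0171% of the pair in 2 libraries, 5.32% to 5.68% in 6 and 10.1% to 11.9% in 7. The states did not follow those of Rps26, since melanoma plus lisinopril 1, with Rps26-ps1 at 99.9%, had 10.1% of Gm8730 and control 1 had 0.0171%. Rpl14-ps1 held 27.7% and 27.6% of the Rpl14 pair in lisinopril 3 and melanoma 3 and at most 0.784% in the other 13 libraries. The cause of these steps was not tested.

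**Figure D5:**
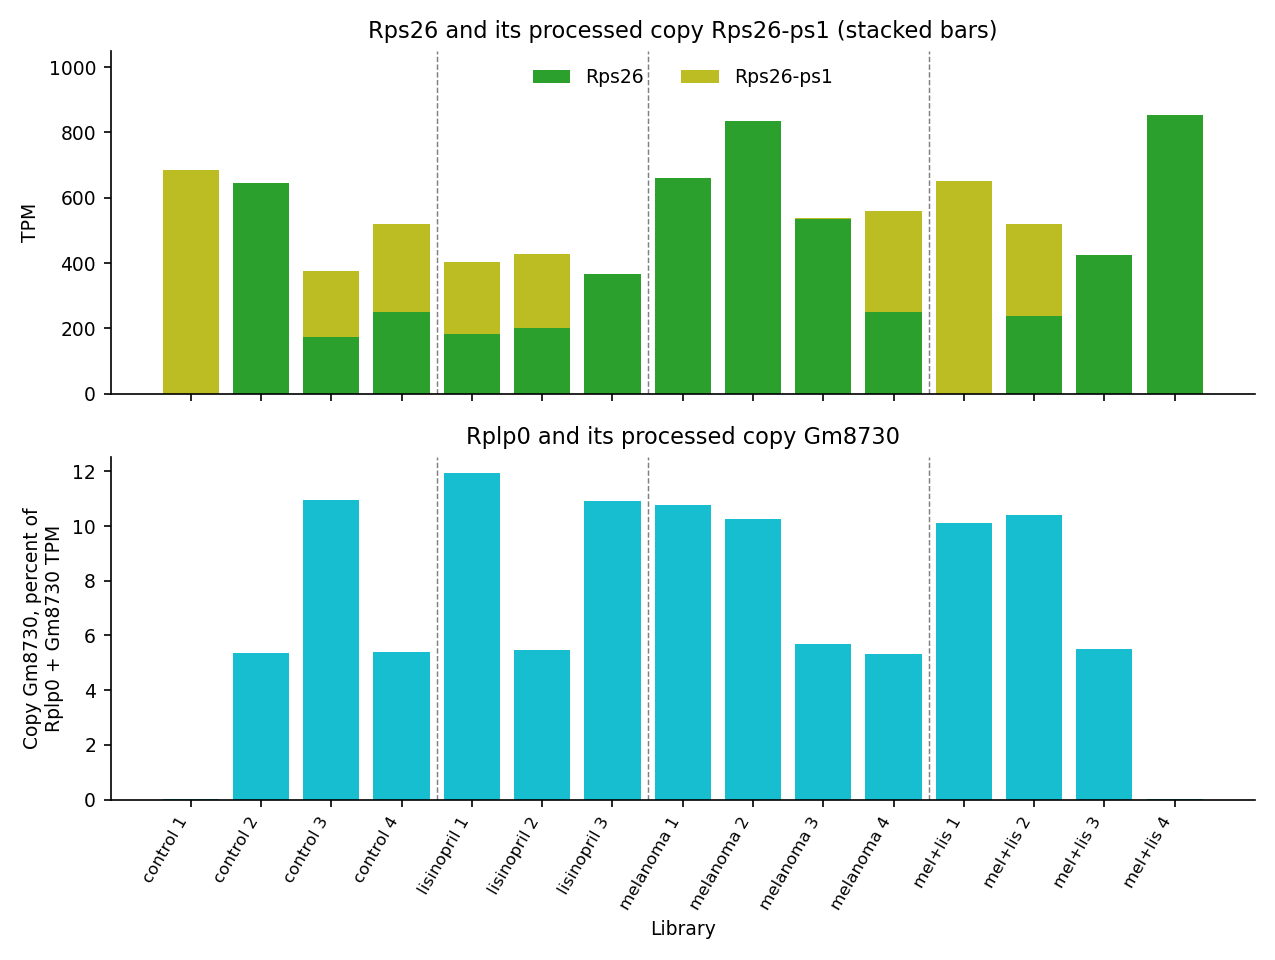
Top, stacked bars of Rps26 and its copy Rps26-ps1 (TPM) in each library; bottom, the share of the Rplp0 pair held by its copy Gm8730 (percent of TPM); dashed lines part the groups. The Rps26 bars are of 1 colour or split near 50 to 50, and the Gm8730 share stands near 0%, near 5% or near 10%.

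Genes that work with the ribosome were read from lists that earlier results of these data had in part shaped. Ribosomal proteins named outside the pattern made a list of 5 that included Fau, Rpl36al, Rps27rt and Rack1, the last under its older symbol Gnb2l1. All 5 were positive in the average tumour effect and 1 passed, Rps27rt at 0.80 ± 0.23 (adjusted p = 0.0298), and Gnb2l1 was at 0.56 ± 0.19 (adjusted p = 0.0542). Rps27rt matches the whole coding sequence of Rps27 with 0 mismatches, so its split from Rps27 is uncertain and its call is no separate result. A list of 20 genes, translation factors and others, was compiled as genes with TOP mRNAs, and their tracts were not examined separately. Of these 20, 4 were higher and 0 lower (14.5% and 3.45% of all genes), with a median of 0.39. After rescaling 3 were higher (9.45% of all genes), with a median of 0.19. The 4 were Naca, a chaperone of new chains that in muscle also has a longer form (0.69 ± 0.17, adjusted p = 0.0187), the elongation factor Eef2 (0.67 ± 0.17, adjusted p = 0.0224), the initiation factor subunit Eif3f (0.61 ± 0.17, adjusted p = 0.0299) and Tpt1 (0.48 ± 0.14, adjusted p = 0.0363; 0.28, adjusted p = 0.114 after rescaling). Eef1a2, the elongation factor of mature muscle, was at 0.06 ± 0.12 (adjusted p = 0.730) and turned to -0.14 after rescaling.

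Of 41 ribosome biogenesis genes, 7 were higher and 0 lower, with a median of 0.38, and after rescaling 4 were higher and 1 lower with a median of 0.21. The higher counts are near the share of all genes, 14.5% as deposited and 9.45% after rescaling. The nucleolar proteins Gnl3 (0.85 ± 0.25, adjusted p = 0.0346), Ddx21 (0.80 ± 0.23, adjusted p = 0.0315), Nop14 (0.75 ± 0.21, adjusted p = 0.0301) and Wdr43 (0.72 ± 0.22, adjusted p = 0.0404; 0.0596 after rescaling) were the largest. Nop14 rose from 15.1 ± 2.53 TPM (SD, n = 7) to 27.6 ± 13.6 (SD, n = 8), with 7 of 8 tumour-bearing libraries above all tumour-free ones. Of 11 measured genes of ribosome quality control, which clears stalled ribosomes, 2 were higher, Zfp598 (0.66 ± 0.18, adjusted p = 0.0273) and Nemf (0.64 ± 0.16, adjusted p = 0.0201), and 0 lower, also near the 14.5% of all genes.

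Of 20 genes of mTORC1 and translation control, 6 were higher and 0 lower (14.5% and 3.45% of all genes), with a median of 0.43, and after rescaling 4 were higher and 1 lower (9.45% and 9.93% of all genes). Eif4ebp1, which encodes a repressor of cap-dependent translation, rose from 60.7 ± 40.6 TPM (SD, n = 7) to 361 ± 287 (SD, n = 8), a log2 fold change of 2.40 ± 0.44 (adjusted p = 0.00440). Ddit4, an inhibitor of mTORC1, changed by 1.16 ± 0.38 (adjusted p = 0.0473; 0.0759 after rescaling). The stress-response factor Atf4 changed by 0.90 ± 0.21 (adjusted p = 0.0139) and Mtor, the kinase itself, by 0.76 ± 0.19 (adjusted p = 0.0178). The genes that moved thus include both the kinase and inhibitors of its output.

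The mitochondrial ribosome, a separate particle built from other nuclear genes, did not share the direction. Of its 77 genes 0 were higher and 9 lower in the average tumour effect (14.5% and 3.45% of all genes), with a median of -0.09. After rescaling 0 were higher and 28 lower (9.45% and 9.93% of all genes), with a median of -0.29. Mrpl28 fell from 69.2 ± 6.59 TPM (SD, n = 7) to 49.5 ± 9.11 (SD, n = 8), a log2 fold change of -0.50 ± 0.13 (adjusted p = 0.0245), and all 8 tumour-bearing libraries lay below all 7 tumour-free ones. Mrpl19 (-0.52 ± 0.13, adjusted p = 0.0221), Mrpl46 (-0.47 ± 0.13, adjusted p = 0.0260) and Mrpl45 (-0.44 ± 0.14, adjusted p = 0.0398) were the other large falls. Their summed level was 3669 ± 236 TPM (SD, n = 7) and 3501 ± 331 (SD, n = 8), against 21057 and 30076 TPM for the cytoplasmic set. The 2 sets were not compared by a test of the difference.

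Among all other genes with a mean of at least 5 TPM, 10 followed the mean of the members most closely over the 15 libraries. Pearson's r ran from 0.97 to 0.99, a description in which all points share library scale. The list held 3 copies of members, Gm10260 and Rps18-ps3 of Rps18 and Rpl27-ps3 of Rpl27. Others on it were Gnb2l1, Taf8, Ing1 and the gene models BC005537 and Gm9843. Ing1 was past the threshold in the average tumour effect, at 0.82 (adjusted p = 0.0251), and so was Gm10260.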

How the data were processed

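RNA of tibialis anterior muscle from 15 mice was sequenced by the authors after TruSeq stranded mRNA preparation, per the labels. The deposited values were TPM, computed by the authors on the mm10 genome (named in the submitters' processing notes, per the labels); the sources used here name no aligner, counting program or annotation. Depth is unknown, so no counting interval or detection limit is given. The labels name no batch.

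Genes with at least 1 TPM in at least 3 libraries (11923) were kept. Log2(TPM + 1) was fitted with limma 3.58.1 in R 4.3.3 (eBayes with trend, 4 group means, 11 residual and 3.80 prior degrees of freedom). Tests were two-sided, with Benjamini-Hochberg adjustment over all genes and a threshold of 0.05. The fit was tested on simulated data in which genes varied independently. That test does not cover counts of members that move together. Labels call the libraries biological replicates.

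Members and lists were chosen with earlier results of these data known. Members named were the largest changes past the threshold per comparison, a panel, the highest, the lowest and the least correlated. Copies were found with BLAST 2.17.0 in GENCODE transcripts. Older symbols were looked up in RefSeq, and 2 list symbols were not matched. Alternatives were another pseudocount (0.1), other filters (none, or a mean of at least 5 TPM), rescaling, removal of the mitochondrial genome, a replicate block, libraries left out and copies summed. Copies summed, and rescaling with control 2 and melanoma 2 left out, were not planned beforehand. Python 3.11.15 and pandas 2.3.3 made the tables. Some genes are not reported here by name.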

Additional observations from a re-analysis of the deposited data

Results flagged for a closer look

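In melanoma 2, 9 named members lay far above the other 3 melanoma libraries by Dixon's test. These were Rpl10 (184 TPM, the others 62.8 to 70.6), Rpl22 (121, the others 79.6 to 83.7), Rpl3 (119, the others 31.9 to 41.4), Rpl39 (245, the others 166 to 174) and Rpl4 (1881, the others 942 to 1040.3). They also included Rps27 (733, the others 264 to 339), Rps27l (185, the others 118 to 129), Rps4x (658, the others 433 to 453) and Rps6 (574, the others 289.7 to 333). In all, 99 groups of 4 libraries were tested, and chance gives about 1 in 20. The 9 values share 1 library, in which the members moved together, so they are not independent of each other.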

How the results depend on the processing

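The average tumour effect was higher for 28 members (14.5% of all genes), and for 3 without a filter (4.62%), 14 after median-ratio rescaling (9.45%), 16 without the mitochondrial genome (10%) and 64 without control 2 and melanoma 2 (26.1%). Leaving out 1 library gave 1 to 70. The members' share was below that of all genes without a filter and in 4 of these 15 fits. Melanoma against control gave 1 of 81 members with rescaling and both libraries left out, where 272 of 11746 genes were higher. With 1 library left out it gave 0 to 2, the 2 without control 2, where 449 of 11809 genes were higher. Melanoma plus lisinopril against lisinopril gave 24 without both libraries (14.4% of all genes) and 5 with rescaling as well (7.34%). With 1 left out it gave 0 to 2, the 2 without control 2 (529 of 11809 genes) or without melanoma 2 (595 of 11859 genes). The cause of these differences was not tested. Both lisinopril comparisons and the interaction gave 0 members in these fits.

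Of the named members, Rpl3l turned to -0.070 after rescaling, -0.00113 without the mitochondrial genome and -0.029 with rescaling and both libraries left out. Rpl7l1 turned to -0.099, -0.034 and -0.090 in the same settings. Rps27l (-0.071) and Rps3a1 (-0.023) turned in the last of them, and Rps26 without control 1 (-0.17; up to 1.82 with another library left out). None of these 5 passed the threshold on the deposited scale.

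With the replicate number as a block, 34 members were higher in the average tumour effect (all 28 among them; 14.8% of all genes) and 0 in each of the other comparisons. The labels do not tie libraries of the same number to each other. Deviations of 21 same-numbered pairs correlated between -0.153 and 0.359, 9 above 0.1, and 4 of 15 libraries correlated best with their own number, so the numbers were not taken as a pairing.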
